A study of Mus musculus with 7 samples.

Results

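The regions described here were open in sorted Sox2-positive cells of the mouse lower incisor and in the whole lower incisor, and were missing from the best-ranked peaks of whole molars and of embryonic arch ectoderm. They were chosen from ATAC-seq peak lists of 7 libraries. From each list the 38000 best peaks on chromosomes 1 to 19 were taken by the authors' p-value, and peaks of all libraries that share at least 1 bp were merged into 77136 regions. A region was kept if both Sox2-positive libraries and the incisor library had a peak in it and if neither molar and neither ectoderm library had one. This gave 1583 regions, 2.05% of all merged regions and 6.73% of the 23524 regions that both Sox2-positive libraries and the incisor had. The choice therefore used the presence of peaks in all 7 libraries, and peak presence, rank and p-value of the members are given below as a description only. When Sox2-positive replicate 1 was not required, 4452 regions met the rule, and when replicate 2 was not required, 2194 did. With all deposited peaks in place of the best 38000, 534 regions met it.

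ATAC-seq uses a transposase that inserts sequencing adapters into DNA not packed by nucleosomes, so that peaks mark accessible sites, and the labels name the Omni-ATAC form of the assay. Sox2-positive cells (replicates 1 and 2) came from postnatal day 2 mice with GFP driven by the endogenous Sox2 promoter. They were obtained by flow sorting after the labial cervical loop of the lower incisor had been dissociated, and the labels call them DESC, dental epithelial stem cells. Whole teeth, namely lower incisor, lower first molar and upper first molar of the same age, are represented by 1 library each. First pharyngeal arch ectoderm at embryonic day 11.5, peeled from the mesenchyme after Dispase II treatment, gave replicates 1 and 2. Strain, sex and the number of animals per library are not given in the sources used here, nor is it said whether replicates came from separate animals. A whole tooth holds epithelium and mesenchyme together, so in those libraries fewer cells of a type and less open chromatin per cell cannot be told apart.

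The mouse incisor grows throughout life, fed by epithelial stem cells in the labial cervical loop and by mesenchymal progenitors beside it, whereas the molar stops growing once its crown and roots have formed. Tooth shape and position along the jaw are known to depend on homeobox and other transcription factors of the neural-crest mesenchyme, among them members of the MSX, DLX and LHX groups, BARX1 and HAND2. Enhancers, the distal sites that raise transcription of a gene, usually differ more between cell types than promoters do.

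Some members lay at promoters. Of the 1583 members, 46 touched the 250 bases upstream of a RefSeq start site, belonging to 48 genes of which 25 are protein-coding. The same count over all merged regions is not given here, so this number has no background beside it. Among them were 4 genes of the lists used below (Hand2, Prrx1, Twist2 and Runx1), and Wnt5b and Rspo4, which were added after the values were seen because they encode WNT pathway proteins. All 250 bases of each of these 6 windows lay inside a member. The windows of Hand2, Prrx1, Twist2 and Runx1 are shown because the gene results below describe members at these genes. Sequences are from RefSeq (GRCm38.p6), 5′ to 3′ on the gene's strand and end at the base before the start site. Capitals mark matches, on either strand, to any of 24 short motifs that were searched.
Hand2 promoter, chr8:57320733-57320982, plus strand: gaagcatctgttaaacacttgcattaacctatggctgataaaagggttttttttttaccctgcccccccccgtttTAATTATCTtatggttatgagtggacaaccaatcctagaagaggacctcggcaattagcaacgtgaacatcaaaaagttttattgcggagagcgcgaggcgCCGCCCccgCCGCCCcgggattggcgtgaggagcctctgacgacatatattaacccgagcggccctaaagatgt
Prrx1 promoter, chr1:163313651-163313900, minus strand: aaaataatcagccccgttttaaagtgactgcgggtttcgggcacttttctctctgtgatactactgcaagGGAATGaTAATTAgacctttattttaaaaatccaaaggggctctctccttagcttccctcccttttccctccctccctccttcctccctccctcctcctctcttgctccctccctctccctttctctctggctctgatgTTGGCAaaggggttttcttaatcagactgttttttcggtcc
Twist2 promoter, chr1:91801211-91801460, plus strand: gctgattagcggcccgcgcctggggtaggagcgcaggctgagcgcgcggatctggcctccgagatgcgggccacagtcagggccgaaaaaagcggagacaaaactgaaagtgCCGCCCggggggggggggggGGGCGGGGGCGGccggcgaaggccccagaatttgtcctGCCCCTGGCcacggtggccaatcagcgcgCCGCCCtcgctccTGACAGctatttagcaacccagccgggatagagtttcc
Runx1 promoter, chr16:92826075-92826324, minus strand: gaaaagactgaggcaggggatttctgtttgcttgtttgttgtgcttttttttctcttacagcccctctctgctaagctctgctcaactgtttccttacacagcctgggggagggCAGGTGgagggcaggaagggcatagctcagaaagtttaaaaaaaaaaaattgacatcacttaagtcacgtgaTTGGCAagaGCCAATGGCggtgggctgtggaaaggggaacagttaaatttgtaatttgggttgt
Wnt5b promoter, chr6:119544348-119544597, minus strand: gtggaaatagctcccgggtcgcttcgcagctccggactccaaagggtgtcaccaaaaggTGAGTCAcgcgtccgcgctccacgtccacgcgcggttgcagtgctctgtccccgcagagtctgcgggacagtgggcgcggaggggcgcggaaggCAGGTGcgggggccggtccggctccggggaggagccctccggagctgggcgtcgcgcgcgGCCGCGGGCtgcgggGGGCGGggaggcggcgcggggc
Rspo4 promoter, chr2:151842677-151842926, plus strand: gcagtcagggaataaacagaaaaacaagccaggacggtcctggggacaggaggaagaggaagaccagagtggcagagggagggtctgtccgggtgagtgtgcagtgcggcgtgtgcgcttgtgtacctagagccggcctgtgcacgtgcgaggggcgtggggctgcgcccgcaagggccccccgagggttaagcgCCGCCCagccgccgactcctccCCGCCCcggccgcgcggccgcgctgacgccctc

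Capitals in the Hand2 window mark the homeobox core TAATTA, the GATA motif AGATAA on the other strand, which overlaps it, and 2 GC boxes (GGGCGG, the SP/KLF motif). TAATTA was also in the Prrx1 window, directly after the TEAD motif GGAATG and with the NFI motif TTGGCA nearer the start site. It was found in 4.82% of all 31218 windows of this length, AGATAA in 9.92%, GGAATG in 12.5% and TTGGCA in 12.2%. The Twist2 window held 4 GC boxes, the AP-2 motif GCCNNNGGC and the MEIS motif TGACAG, and the Runx1 window the E-box CAGGTG together with the NFI and AP-2 motifs. In the Wnt5b window the AP-1 motif TGANTCA was present, as were the E-box, the AP-2 motif and a GC box, and the Rspo4 window had 2 GC boxes only. GC boxes were in 33.1% of all windows, the AP-2 motif in 13.9%, the MEIS motif in 15.7%, the E-box in 17.5% and the AP-1 motif in 6.75%. A match is a run of letters and does not show that a factor bound there.

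Most members were in the lower-ranked 50% of the lists that define them. Their median rank was 25741 of 38000 in Sox2-positive replicate 1, 22912 in replicate 2 and 23880 in the incisor, where rank 1 is the smallest p-value. In the upper 50% of the list lay 22.7%, 34.1% and 29.6% of them. The median −log10 p was 3.93, 3.92 and 4.76, and the median deposited signal, the area of a peak, was 430, 448 and 812. These values were not put on a common scale across libraries, so only ranks within a list are compared. Replicate 2 ranked 57.7% of the members better than replicate 1 did. The incisor ranked 31.4% of members better than both Sox2-positive libraries and 30.1% worse than both, so its order lay on neither side of the replicates as a rule.

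**Figure D1:**
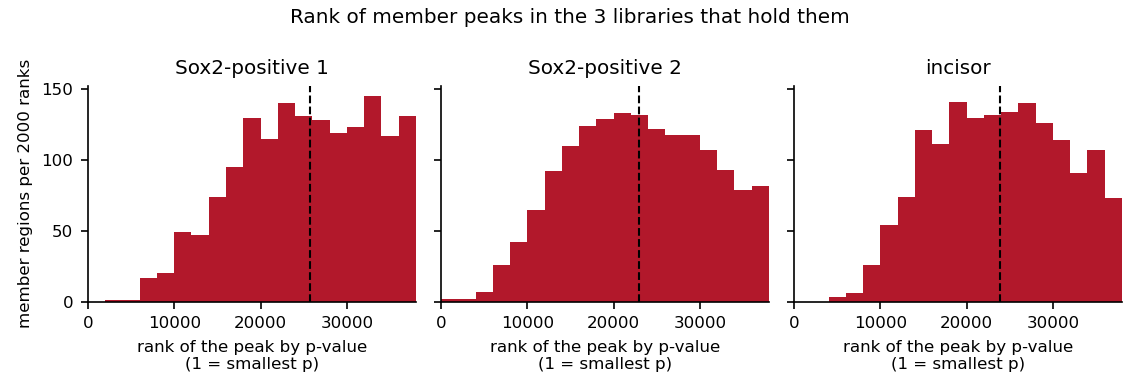
Ranks of the 1583 members among the 38000 best peaks of each of the 3 libraries that define them (rank 1 has the smallest p-value). In each library the members are sparse at the best ranks, with medians of 25741, 22912 and 23880. The quartiles are 19456.5 and 31930 in Sox2-positive replicate 1, 16773.5 and 29477.5 in replicate 2, and 18019.5 and 29816 in the incisor.

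In most members the tops of the peaks in the 3 libraries lay within 100 bp of each other, pair by pair. The choice required peaks of all 3 libraries in 1 merged region, so close summits are in part built into it. The median gap between summits was 37 bp between the Sox2-positive replicates, 36 bp between replicate 1 and the incisor and 15 bp between replicate 2 and the incisor, and 77.7%, 78.0% and 88.3% of the members had summits within 100 bp. Regions that all postnatal libraries shared and ectoderm lacked, of which there were 4853, had gaps of 27, 27 and 11 bp in the same order. The closest pair was replicate 2 and the incisor in both sets. Members had a median width of 646 bp (quartiles 509.5 and 828) and covered 1.12 Mb in all.

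Most members were not closed in molars by the deposited calls: they had a molar peak that ranked beyond 38000. Such a peak was present in the lower molar for 78.6% of members and in the upper molar for 69.4%, in 1 or both for 84.0%. In ectoderm it was present in replicate 1 for 18.8% and in replicate 2 for 6.13%, in either for 19.1%. In all, 86.1% (Wilson 95% interval 84.3 to 87.7, covering the counting of regions only) had a lower-ranked peak in at least 1 excluded library, 796 (50.3%) had one in both molars and in no ectoderm library, and 220 (13.9%) had none at any rank. The lists allow different depths for this count: 38000 peaks are 90.8% and 99.1% of the autosomal peaks in the lists of Sox2-positive replicates 1 and 2 but 55.2% and 56.6% in the molars, 61.2% in the incisor, and 47.0% and 76.4% in ectoderm replicates 1 and 2. At rank 38000 the −log10 p was 3.33 and 2.94 in Sox2-positive cells, 4.01 in the incisor, 4.28 and 4.27 in the molars, and 4.79 and 3.82 in ectoderm. For 844 members (53.3%) an excluded library's lower-ranked peak had a larger −log10 p than the weaker of the Sox2-positive peaks, and for 347 (21.9%) it was larger than both. The part of list length and p-value scale in the choice of members was not tested.

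**Figure D2:**
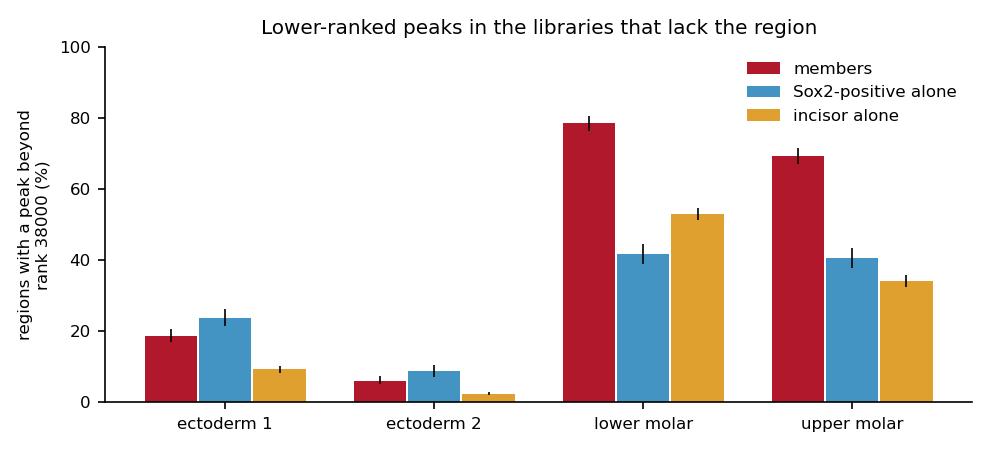
Share of regions (percent) with a peak beyond rank 38000 in each excluded library, for members, regions of Sox2-positive cells alone and regions of the incisor alone; error bars are Wilson 95% intervals over regions. Members have such a peak in the lower molar in 78.6% of cases and in the upper molar in 69.4%, above both other sets.

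Lower-ranked molar peaks were more frequent in members than in regions found in only 1 of their sources. Of the 1141 regions open in Sox2-positive cells alone, 571 (50.04%) had a lower-ranked molar peak, 33.9 percentage points fewer than members (Newcombe 95% interval 30.5 to 37.3). Of the 3364 regions of the incisor alone it was 59.7%, 24.3 points fewer (21.8 to 26.7). Lower-ranked ectoderm peaks were less frequent in members than in regions of Sox2-positive cells alone (24.5%, difference -5.46 points, -8.64 to -2.33) and more frequent than in regions of the incisor alone (9.48%, difference 9.59 points, 7.47 to 11.8). These differences come from the same lists that chose the regions and carry no test over samples.

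Position in the genome was not used by the choice. The centre of 62 members lay within 1 kb of the end of a protein-coding gene, 3.92% (3.07 to 4.99), against 16.8% of all merged regions. Regions of Sox2-positive cells alone had 5.52%, those of all postnatal libraries without ectoderm 3.42% and those of the incisor alone 3.27%. The members' share was 1.60 points below the first (difference -1.60, interval -3.31 to -0.00866), and its differences from the second (0.496, -0.516 to 1.67) and the third (0.647, -0.427 to 1.85) had intervals that include 0. With the 20000 best peaks per library the members' share was 9.01%, and with merging of 200 bp summit windows it was 7.02%. Inside a gene body lay 55.3% of members (52.8 to 57.7), beside 55.4%, 56.0% and 56.5% in these sets and 58.2% of all regions. The median distance to a gene end was 24.0 kb (quartiles 8.88 and 65.4 kb), against 26.2, 27.4 and 27.0 kb in the sets and 17.2 kb over all regions. Members were thus mostly distal, like the other sets that lack ectoderm. They were spread over all of chromosomes 1 to 19, from 1.502% of the regions on chromosome 10 to 2.53% on chromosome 16.

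Each member was assigned to the protein-coding gene with the nearest gene end if that lay within 50 kb, which held for 1085 members (68.5%) and gave 972 genes. That is 4.70% of the 20661 protein-coding genes on these chromosomes, the background for the counts below. The sets of Sox2-positive cells alone, all postnatal libraries without ectoderm, and incisor alone gave 3.31%, 12.2% and 8.96%. When every gene that holds a region or lies within 50 kb of it was counted, the shares were 11.3% for members and 8.69%, 26.7% and 20.2% for these sets. With 1 member each there were 871 genes, and 94 had 2, 3 had 3, 3 had 4 and 1 had 5. Of 21 gene lists, dental mesenchyme and odontoblast genes had a member at 7 of 20 genes (35.0%) and FGF signalling at 4 of 16 (25%). Under the wider assignment these 2 counts were the same, but muscle had 4 of 9 (44.4%) and the iroquois, MEIS, PBX and NFI factors 6 of 17 (35.3%). The lists were chosen with earlier results of these data known, so these counts are a description.

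**Figure D3:**
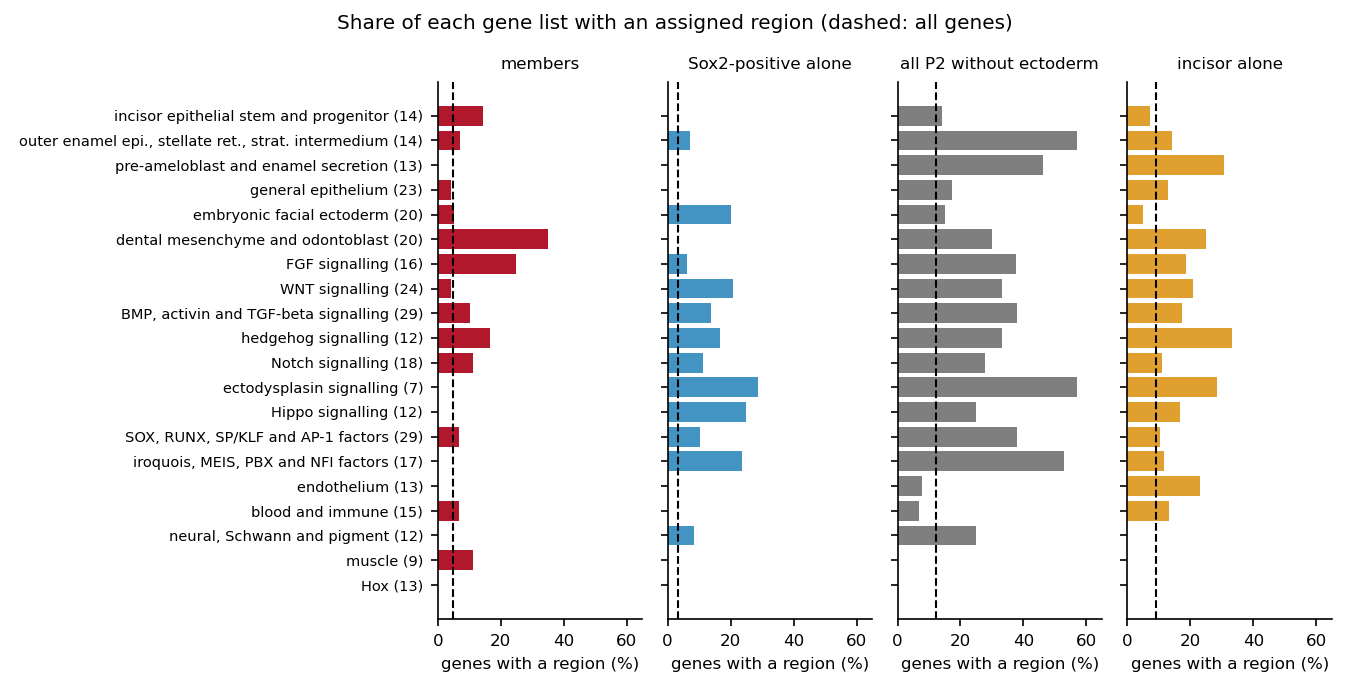
Share of the genes of each list (percent, number of genes in brackets) with an assigned region, for members and the 3 sets they are compared with; dashed lines give the share over all genes, 4.70% for members. Among members the lists of dental mesenchyme and FGF signalling stand at 35.0% and 25%.

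Hand2, a basic helix-loop-helix factor of the distal jaw, had 4 members, 1 at its start and 3 beyond its other end. One member (chr8:57320375-57321213) covered the promoter printed above and ranked 16481 and 12542 in Sox2-positive cells and 16239 in the incisor. The best-ranked member lay 9.51 kb from the gene (chr8:57333443-57334618), at ranks 6084, 8600 and 10503 with a −log10 p of 5.95, 5.43 and 6.11. Next to it chr8:57335516-57336978 ranked 13417, 17423 and 9038, and chr8:57340755-57341271 was near the limit with 23825, 37254 and 37146. None of these 4 had a molar peak at any rank, and 2 had a peak in ectoderm replicate 1, at ranks 62616 and 60425. Within 20 kb of Hand2 the Sox2-positive libraries had 5 and 5 peaks among the best 38000 and the incisor 6, the molars 0 and 0, and ectoderm 1 and 1. At any rank there were, in the same order, 5 and 5, 8, 1 and 1, and 6 and 1. A further region of both Sox2-positive libraries, chr8:57387639-57387983, lay 63.3 kb from Hand2. It missed the rule because the incisor peak that touched it ranked 38001.

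Alx1, a homeobox gene with roles in eye and face development, had 1 member inside the gene (chr10:103028158-103029463) that the nearest-end rule gave to the gene Gm34298. It ranked 6528, 8104 and 7330 with a −log10 p of 5.85, 5.52 and 6.68, and its excluded peaks were in ectoderm only, at ranks 46732 and 45291. No molar peak of any rank lay within 20 kb of Alx1.

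**Figure D4:**
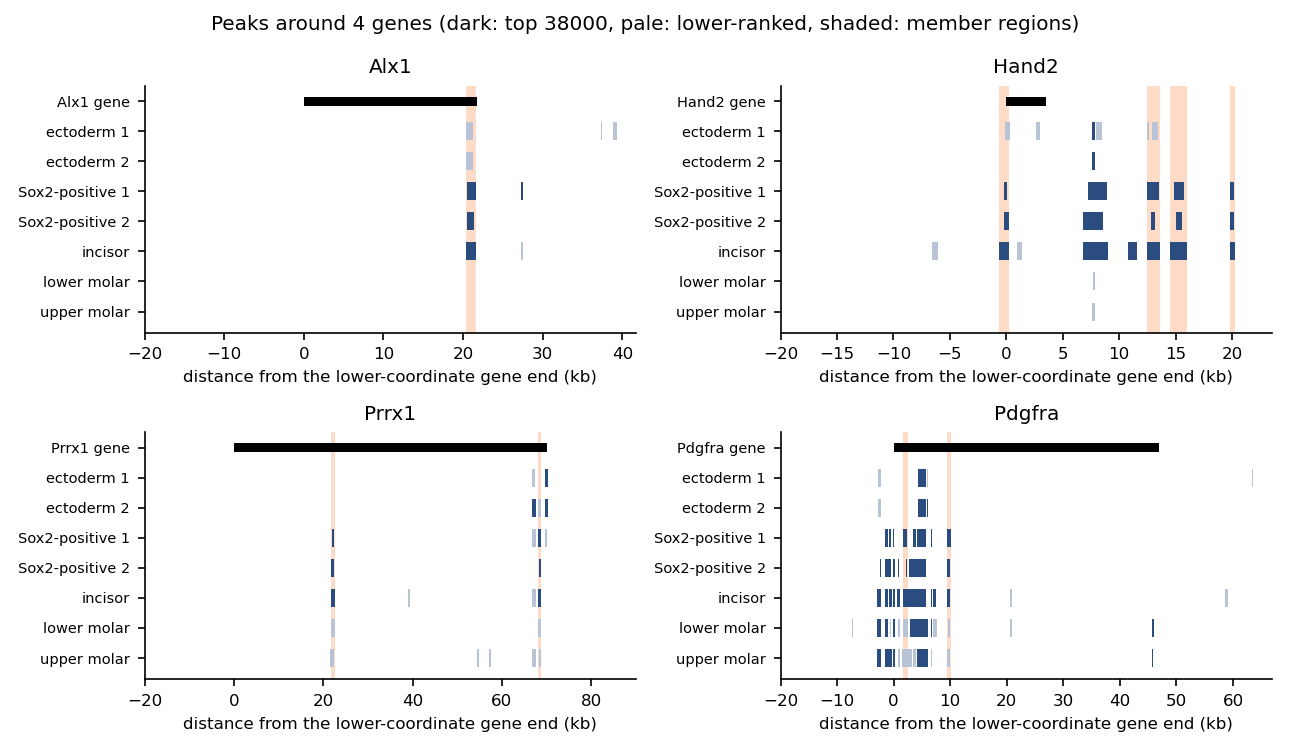
Peaks within 20 kb of Alx1, Hand2, Prrx1 and Pdgfra in the 7 libraries, by distance from the gene end with the lower coordinate (kb); dark bars are peaks among the best 38000, pale bars are lower-ranked peaks and shaded bands are members. At Hand2 the Sox2-positive rows hold 5 and 5 dark bars, the incisor row 6 and the molar rows 0, while at Pdgfra the molar rows hold 6 and 5.

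Genes of the dental mesenchyme had 11 members at 7 of 20 genes. They comprised the transcription factor genes Prrx1, Prrx2, Twist2 and Pax9, the receptor gene Pdgfra and the collagen genes Col1a1 and Col1a2. No gene of the list had a region of Sox2-positive cells alone, 6 had a region shared by all postnatal libraries and 5 one of the incisor alone. Over all genes these shares were 3.31%, 12.2% and 8.96%. A lower-ranked molar peak was present for 10 of the 11 members, and for 0 of the 4 at Hand2. When all deposited peaks were used, 1 gene of the list had a member, beside 1.80% of all genes, and with the 20000 best peaks 4 genes had one, beside 2.54%. Without the requirement of Sox2-positive replicate 1, 12 genes of the mesenchyme list had a member, while the share over all genes rose to 11.3%.

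Prrx1 encodes a paired-related homeobox factor that marks limb and facial mesenchyme. Its best member (chr1:163266791-163267713) ranked 10024, 16883 and 9186 in Sox2-positive replicates 1 and 2 and incisor, and 40927 and 41665 in the lower and upper molar. The molar peaks thus missed the limit by less than the gap between the Sox2-positive replicates. The second member, which holds the promoter printed above, is at a start site inside the annotated gene and ranked 21701, 36014 and 26638. Lower-ranked peaks were there in ectoderm replicate 2 (46689) and in the lower and upper molar (60190 and 65675). At the end of Prrx1 nearest this member, both ectoderm libraries had a peak among the best 38000, and Sox2-positive replicate 1 a lower-ranked one. Prrx2, its paralog, had a member inside the gene at ranks 33077, 20125 and 21198 with molar peaks at 39520 and 38344. Of the members of Twist2, a repressor of mesenchymal differentiation, the one at the promoter (chr1:91800949-91802296) ranked 23932, 25857 and 26619 and had lower-ranked peaks in all 4 excluded libraries. Pax9, a paired-box gene needed for tooth development, had a member 44.1 kb away inside Slc25a21, at ranks 15275, 19062 and 17280.

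Pdgfra, the receptor for platelet-derived growth factor of mesenchymal cells, had 2 members inside the gene. The stronger (chr5:75160737-75161502) ranked 17947, 14376 and 14565 with molar peaks at 40373 and 46143. The gene was not closed in molars, since 6 and 5 peaks among the best 38000 lay within 20 kb of it there, beside 8 and 8 in Sox2-positive cells, 10 in the incisor and 1 and 2 in ectoderm. Col1a1 and Col1a2 encode the chains of type I collagen, the main protein of dentin and bone. The Col1a1 member chr11:94918242-94918944, 17.6 kb from the gene, ranked 21078, 23054 and 15931 and had no peak in any excluded library. The other (chr11:94940530-94951510) was the widest of all members at 10981 bp and spanned much of the gene, with ranks of 37113, 18033 and 33556. That width is the width of its peak in Sox2-positive replicate 2. The best-ranked peak of a member was at most 2151 bp wide in replicate 1 and 7229 bp in the incisor. Lower-ranked peaks were there in ectoderm replicate 2 (46216) and in the lower and upper molar (64532 and 66770). When peaks had to cover 50% of a region, 0 of the 2 Col1a1 members were kept.

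**Figure D5:**
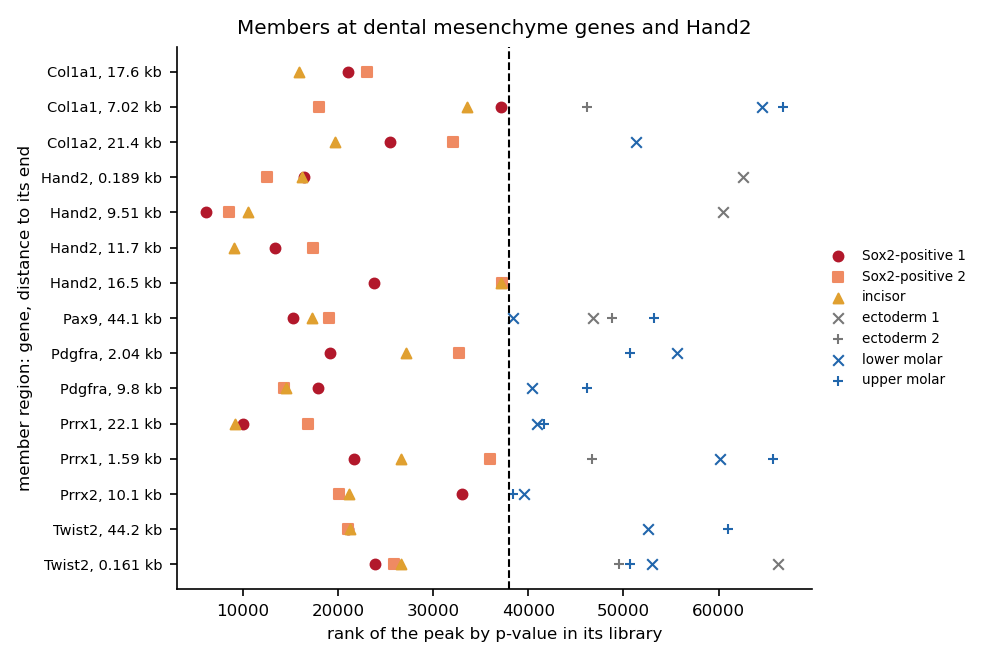
Rank by p-value of each member at a gene of the mesenchyme list and at Hand2, in the 3 libraries that define it (filled symbols, left of the dashed line at 38000) and in excluded libraries with a lower-ranked peak (crosses). The best Sox2-positive rank is at Hand2, 6084, and blue crosses (molars) are beside 10 of the 11 mesenchyme-list members and 0 of the 4 Hand2 members.

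The labels name the sorted cells epithelial, and marker genes were therefore counted if either gene end had a peak among the best 38000 no more than 1 kb away. Of 23 general epithelial genes, 19 and 19 had one in the Sox2-positive replicates, 13 in the incisor, 19 and 17 in the molars and 22 and 21 in ectoderm. Of 20 mesenchyme and odontoblast genes the counts were 12 and 13, 13, 11 and 11, and 9 and 10. Over all genes 57.3% and 57.0% had such a peak in Sox2-positive cells, 55.5% in the incisor, 55.8% and 56.0% in the molars and 60.1% and 62.1% in ectoderm. Sox2-positive cells thus had a higher share of epithelial genes than of all genes, and their share of mesenchymal genes (60% and 65%) was near that of all genes. Sox2 itself had such a peak in both replicates of Sox2-positive cells and of ectoderm, and in the incisor and both molars only beyond rank 38000. In both Sox2-positive replicates and the incisor, Pdgfra, Twist1, Twist2 and Runx2 were among the mesenchymal genes with such a peak. Dspp and Dmp1, which define odontoblasts, and Postn, Col3a1, Pax9 and Prrx1 had none there. Beyond rank 38000, Dspp and Pax9 had one in the incisor and Prrx1 one in Sox2-positive replicate 1. Endothelial genes had 3 and 6 of 13 in Sox2-positive cells and 2 in the incisor, and blood and immune genes 4 and 4 of 15 and 3. Ptprc, Csf1r and Pecam1 were without one at any rank in these 3 libraries. Other genes of the same lists had one among the best 38000: Spi1, Cd68 and Runx1 in all 3 libraries, and Kdr and Cldn5 in both Sox2-positive replicates. With all deposited peaks the incisor had 16 of 20 mesenchymal, 17 of 23 epithelial and 7 of 13 endothelial genes. In the molars these counts were 14 and 15, 22 and 22, and 7 and 5. Ectoderm had 13 and 12, 22 and 22, and 7 and 7, in the same order. Sox2-positive cells had 13 and 13, 20 and 19, and 3 and 6. The share over all genes at this setting is not given here. Gene-end peaks do not measure expression, and the part of mesenchymal cells in the members at mesenchymal genes was not tested.

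Receptors and feedback inhibitors of FGF signalling, which maintains the labial cervical loop, had 5 members. Fgfr3 had 2, at chr5:33697813-33698681 (ranks 35531, 21795 and 27051, with no excluded peak) and at chr5:33701514-33702165 (28182, 12548 and 21920). Replicate 2 ranked both higher than replicate 1 did. A member 29.8 kb from Fgfr1 ranked 36277, 29856 and 18852. The member of Spry1, an inhibitor of receptor tyrosine kinase signalling, ranked 23252, 22088 and 15622 and had an upper molar peak at rank 38236, just past the limit. At Dusp6, the phosphatase that limits ERK, ranks were 20286, 37878 and 29797. With the 30000 best peaks or with ranking by signal 2 genes of the list had a member, beside 3.66% and 4.01% of all genes. With the 20000 best or all deposited peaks 1 had, beside 2.54% and 1.80% of all genes. No FGF ligand gene of the list had a member. A region of Sox2-positive cells alone was at 1 gene of the list (6.25%), beside 3.31% of all genes. Regions of all postnatal libraries were at 6 (37.5%), beside 12.2%, and regions of the incisor alone at 3 (18.75%), beside 8.96%. For members the share was 25%, beside 4.70%.

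The hedgehog pathway carries signals from differentiating epithelium to the stem cells. Of its 12 genes 2 (16.7%) had a member, beside 4.70% of all genes. They were Boc, a co-receptor, and Sufu, the inhibitor that holds GLI factors in the cytoplasm. In the same list 2 genes had a region of Sox2-positive cells alone, 4 one of all postnatal libraries and 4 one of the incisor alone. The shares of all genes with a region of these sets were 3.31%, 12.2% and 8.96%. The Sufu member (chr19:46478282-46480382) lay inside the gene and was second among all members by its worst signal rank. It ranked 9130 and 10369 by p-value in Sox2-positive cells and 25390 in the incisor, and all 4 excluded libraries had a lower-ranked peak there, the best at 41606 in the upper molar. Hhat, which attaches palmitate to hedgehog ligands and was not in the list, held the third such member (chr1:192735783-192737176), at ranks 15562, 12064 and 20323. Beyond 50 kb, and looked up after the values were seen, were 4 members nearest to Gli2, the main activator among the GLI factors, and 1 each nearest to Ptch1, the receptor, and Hhip, a decoy receptor. Of the Gli2 members 3 lay inside the gene, with Sox2-positive ranks from 16481 to 32438.

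The other signalling lists had a member at 0% to 11.1% of their genes, beside 4.70% of all genes. WNT signalling had 1 of 24 genes, Tcf7, a nuclear partner of beta-catenin (chr11:52274368-52275034, ranks 36476, 27631 and 27631). In that list 5 genes had a region of Sox2-positive cells alone, 8 one of all postnatal libraries and 5 one of the incisor alone. Of all genes, 3.31%, 12.2% and 8.96% had a region of these sets. R-spondin genes, which encode secreted enhancers of WNT signalling, were not in that list and were chosen after the values were seen: a member 16.8 kb from Rspo1 was ninth by worst signal rank (ranks 18752, 14434 and 16669), and the Rspo4 promoter member ranked 16107, 33710 and 25940. BMP, activin and TGF-beta signalling had 3 of 29 genes, namely the activin receptor gene Acvr2b, the signal transducer Smad3 and the target Id2. Notch signalling had 2 of 18, the receptor Notch2 and Lfng, whose product modifies Notch receptors. Ectodysplasin and Hippo signalling had 0 of 7 and 0 of 12. Under the wider assignment WNT signalling had 12.5%, BMP, activin and TGF-beta signalling 24.1% and Notch signalling 16.7%. Ectodysplasin signalling had 14.3% and Hippo signalling 8.33%, beside 11.3% of all genes.

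Epithelial gene lists had 0 to 2 genes each with a member, beside a share of 4.70% over all genes. Of 14 stem and progenitor genes 2 (14.3%) had a member. Under the wider assignment 4 (28.6%) had one, beside 11.3% of all genes. The 2 were Lrig1, a feedback inhibitor of EGF receptor family signalling (ranks 32318, 33697 and 33240), and Zfp536 (16893, 29295 and 25467). General epithelium had 1 of 23 genes (4.35%), the P-cadherin gene Cdh3, which is near the share over all genes. No gene of that list had a region of Sox2-positive cells alone, where the share over all genes was 3.31%. The lists of outer enamel epithelium, stellate reticulum and stratum intermedium and of embryonic facial ectoderm had 1 gene each, Notch2 and Dlx6, and none of 13 genes of enamel secretion had a member. Among SOX, RUNX, SP/KLF and AP-1 factors, 2 of 29 genes had 3 members: Klf6 had 1 and Runx1, a runt-domain factor of blood and of epithelial stem cells, had 2. The Runx1 member at the promoter printed above (chr16:92825863-92826521) ranked 25345 and 9818 in Sox2-positive cells and 13448 in the incisor, and its molar peaks ranked 39789 and 40546. Muscle had 1 of 9 genes, Myf5. Endothelium, neural, Schwann and pigment cells, Hox genes and the iroquois, MEIS, PBX and NFI factors had 0 genes with a member under the nearest-end rule.

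The gene with the most members was Angpt4, which encodes a ligand of the endothelial receptor TIE2, with 5. They ranked from 13283 to 22704 in Sox2-positive replicate 1, from 14280 to 36012 in replicate 2 and from 14660 to 20128 in the incisor. The one at chr2:151903172-151904449 had no excluded peak, and the other 4 had a lower-ranked peak in the lower molar. Within 20 kb of Angpt4 the Sox2-positive lists had 7 and 6 peaks among the best 38000 and the incisor 7, against 1 in each molar and 2 and 1 in ectoderm. At any rank the counts were, in the same order, 7 and 7, 9, 5 and 5, and 8 and 6. Adamts2, a protease that trims procollagen, had 4 members at ranks from 11680 to 36593 over the 3 libraries, all of which had peaks in both molars. Rasl11b, Actn1 and Eva1c had 3 each, and Pde4a, Parvb and Runx1 had 2 each. The member chr16:90885616-90886645 inside Eva1c ranked 9201, 10985 and 26609. At Rasl11b replicate 2 ranked all 3 members (7579 to 15796) better than replicate 1 (27009 to 37962).

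By the worst of their 3 signal ranks, the first members included those near LOC108167320, Sufu, Hhat and Scg5, inside Alx1, and near Tmem184b, Actbl2, Rspo1 and Synpo. The Scg5 member, inside a gene for a secretory granule chaperone, ranked 11959, 7931 and 6752 by p-value with an upper molar peak at 38330. The Actbl2 member, 43.9 kb from that gene, ranked 6172 in Sox2-positive replicate 2, and its lower molar peak was at 38141. Of the 220 members with none, Cxcl14, a chemokine gene, had one 7.36 kb away at ranks 20273, 15183 and 31312, chosen after its values were seen.

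Members just inside and just outside the limit show how narrow it is. The member with the worst rank (chr4:131910310-131911075, near Srsf4) was at 37994. The member whose excluded peak came closest (chr6:140514786-140515190, nearest Plekha5) had it at rank 38009. A region near Cnga3 (chr1:37248406-37248798) was kept out by a lower molar peak at rank 37982. Of 86 named member regions, 8 were still touched by a member when all deposited peaks were used, among them 2 of 4 at Hand2, 1 of 2 at Col1a1 and 0 of 2 at each of Prrx1, Twist2 and Pdgfra. With ranking by signal, Hand2 kept 4 of 4 and Prrx1 and Pdgfra 0 of 2 each.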

How the data were processed

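The 7 ATAC-seq libraries came as 1 narrowPeak list each, so peaks were called per library. Per the submitters' processing notes, the tools were FastQC, Trimmomatic, Bowtie2, deepTools and Genrich, and the build was mm10; versions, options, read filters and any shift of reads are not given in the sources used here. The deposited lists hold a signal score per peak and a −log10 p-value, neither normalized between libraries, and no read counts, so depth is unknown and no test over samples was possible. Ranks within lists of equal length were used instead. Peaks were ranked by −log10 p (ties by signal), merged at 1 bp of overlap and set against protein-coding genes of a RefSeq table (GRCm38.p6). That table has no strand, so either end of a gene was used where transcription starts had been planned. Distances run from the centre of a region. Wilson and Newcombe 95% intervals cover the counting of regions only, which are not replicates. The script was tested on simulated lists.

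Named regions were the 10 with the best worst signal rank, members of the 10 genes with most members, and those at the limit of 38000. Members of 21 gene lists were also named, up to 4 genes per list. In the dental mesenchyme list all 7 genes with a member were named, beyond that number. Other regions are stated as chosen after their values were seen. The members, lists and comparisons were chosen with earlier results of these data known. Computation used Python 3.11.15, pandas 2.3.3, numpy 2.4.6 and scipy 1.17.1. Promoter motifs were searched in RefSeq sequences 250 bases long; motifs in the members themselves were not analysed here. Alternatives were other list lengths, ranking by signal, summit windows, 50% coverage, other distances, chromosome X added and each library except the incisor left out. Some genes and 1 gene list are not reported here.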

Additional observations from a re-analysis of the deposited data

Results flagged for a closer look

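Chromosome X was outside the choice of members. When its peaks were held to the same limits, 17 of its 1156 merged regions met the rule, 1.47%, beside 2.05% on chromosomes 1 to 19. They are listed because they are signal in data that the report's comparisons do not use. The one nearest to a gene end lay 0.097 kb from Phka1, a gene for a phosphorylase kinase subunit, and 2 were nearest to Bcor, a transcriptional corepressor.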

How the results depend on the processing

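The number of members was 1583, and 755 with the 20000 best peaks per library and 534 with all deposited peaks; leaving out 1 library at a time (each except the incisor) gave 1633 to 4452. The share near a gene end was 3.92%, and 9.01% with the 20000 best peaks, 7.02% with summit windows, 2.08% within 500 bp and 9.48% within 2.5 kb; without 1 library it was 3.51% to 5.10%. The share inside a gene was 52.8% with all deposited peaks and 54.3% to 56.4% without 1 library. The share with a lower-ranked excluded peak was 95.4% and 99.1% with the 30000 and 20000 best peaks, 82.3% by signal, 79.5% with summit windows and 77.4% to 86.6% without 1 library; with all deposited peaks no peak is lower-ranked, so it has no value. Genes with a member numbered 525 with the 20000 best peaks and 371 with all deposited peaks, and 996 to 2334 without 1 library. Shorter lists and all peaks change how many peaks can exclude a region by construction; the cause of the other changes was not tested. Ranking by signal kept 41 of 86 named regions, summit windows 72 and 50% coverage 60. The molar libraries were left out as alternatives chosen after seeing the data. No paired analysis was possible because no result comes from a test over samples. Motif shares in member windows were not run. The lists give no depth, so a missing peak means only that none was listed.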
